A study of Rattus norvegicus with 6 samples.

Results

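The glucocorticoid response was followed in the ileum of rats with severe acute pancreatitis (SAP) through 7 genes, the receptor Nr3c1, the steroid-inactivating enzyme Hsd11b2, and the direct receptor targets Fkbp5, Tsc22d3, Zbtb16, Sgk1 and Klf9. They were taken by symbol from the 28282 gene symbols of the count tables, and all 7 had a row. Nuclei came from wild-type male Sprague-Dawley rats, 3 control (CON) rats and 3 SAP rats, with 1 library per rat and 1 batch. The rats were 6 weeks old when obtained and were acclimatized for 7 days before the experiment. SAP was induced by infusing 3% sodium taurocholate, a bile salt, against the flow of the pancreatic duct at 0.1 mL per 100 g of body weight, and CON rats had a laparotomy without infusion. In SAP rats a needle delivered the bile salt at 0.1 mL/min, and a clamp then kept the duct shut for 5 min. For CON rats the study lists no infusion and no clamp, and it states no puncture. The groups thus also differed in how the duct was handled, and the part of this handling in the differences below was not tested. Ileum was taken at 24 h. Pentobarbital anaesthesia and abdominal surgery were given to both groups, and food was withheld after surgery with water left free. Both groups had thus undergone an operation, and no rat without one was analysed here.

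Glucocorticoids are steroid hormones of the adrenal cortex, with corticosterone as the main form in the rat, and their release increases under systemic stress. The receptor waits in the cytoplasm in a complex with Hsp90 and co-chaperones. After binding steroid it enters the nucleus and binds DNA, where it raises the transcription of some genes and lowers that of others. Fkbp5 is itself a co-chaperone that lowers the affinity of the receptor for steroid, so its induction is a feedback on the response. In the gut, glucocorticoids are known to promote epithelial maturation and sodium uptake and to restrain inflammation.

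A total of 90461 barcodes were listed, and 40970 held at least 1200 unique molecular identifiers (UMIs), 500 detected genes and no more than 5% mitochondrial UMIs. Between 3189 and 9246 nuclei per library passed, with 5549260 to 28771508 UMIs in all and a median of 1516 to 1889.5 UMIs per nucleus. Median mitochondrial shares were 0.125% to 0.700% in CON and 0.387% to 1.84% in SAP. CON 2 and SAP 1 listed barcodes under 1000 UMIs and the other 4 libraries did not, so values within each kind of listing are given below. Barcode names are running numbers, and 5398 of 34979 names occurred in more than 1 library. Nuclei were clustered and clusters were called X-like by fixed markers, such as Myh11, a smooth muscle myosin, at 3758 CPM (counts per 1000000 UMIs) in SMC-like (smooth muscle) nuclei against 71.0 CPM in the rest. A total of 17 classes had at least 10 nuclei in every library, and 4 of them, clusters 0, 1, 8 and 10, stayed unnamed. Expression in cluster 0 was closest to stem/TA-like nuclei (stem and transit-amplifying) and that in cluster 1 to enterocyte-like nuclei.

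Promoter windows of RefSeq (assembly GRCr8, 250 bases before to 50 bases after a transcription start) were found for 5 of the 7 genes, with 10 windows among them. Hsd11b2 and Zbtb16 had no entry. The palindrome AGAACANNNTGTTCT, a full glucocorticoid response element, was searched on both strands and lay in none of the 10 windows and in 0.0149% of 33469 windows in the table. Its left arm alone, AGAACA, which the palindrome contains, was likewise in none of the 10 and in 20.7% of all windows. The windows of Fkbp5 and of the third listed start of Sgk1 are shown because these genes had the lowest p-values of the 7 over all nuclei. Capitals mark the GC box GGGCGG, the CCAAT box CCAAT and the TATA box TATAAA on either strand, which 33.1%, 37.5% and 14.2% of all windows hold. The window of Fkbp5 lies at chr20:6543506-6543805 (minus strand) and that of Sgk1 at chr1:24804782-24805081 (minus strand).
Fkbp5: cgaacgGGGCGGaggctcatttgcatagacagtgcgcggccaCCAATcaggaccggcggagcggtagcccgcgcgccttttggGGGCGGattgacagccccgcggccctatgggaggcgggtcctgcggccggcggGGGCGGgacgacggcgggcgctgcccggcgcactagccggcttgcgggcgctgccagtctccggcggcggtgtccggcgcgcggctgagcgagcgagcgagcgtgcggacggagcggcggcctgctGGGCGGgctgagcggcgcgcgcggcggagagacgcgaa
Sgk1: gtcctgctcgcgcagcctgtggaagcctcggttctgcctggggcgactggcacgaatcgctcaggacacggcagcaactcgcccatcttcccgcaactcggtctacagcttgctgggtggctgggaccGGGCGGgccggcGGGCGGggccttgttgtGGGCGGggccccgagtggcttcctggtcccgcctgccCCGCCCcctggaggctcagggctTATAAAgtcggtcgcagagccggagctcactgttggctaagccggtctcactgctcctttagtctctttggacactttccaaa
The Fkbp5 window held 4 GC boxes and 1 CCAAT box with 77% G and C. The Sgk1 window shown held 4 GC boxes and 1 TATA box with 66% G and C. The windows of the other listed starts of Sgk1 differed from it. Start 1 held 0 GC boxes and 1 TATA box with 40.7% G and C, and start 2 held 2 GC boxes and 0 TATA boxes with 51.7%. No position beyond these windows was searched.

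Over all nuclei, Fkbp5 was higher in every SAP rat than in any CON rat. Its level was 94.8, 71.8 and 148 CPM in CON 1, 2 and 3 and 201, 217 and 271 CPM in SAP 1, 2 and 3. The group means were 105 ± 39.1 CPM in CON and 230 ± 36.4 CPM in SAP (SD, n = 3 each), a log2 fold change of 1.13 (SE 0.27). Over 19187 genes tested with edgeR's quasi-likelihood test and Benjamini-Hochberg adjustment, unadjusted p was 0.00298 and adjusted p 0.545, so the difference did not pass the threshold of 0.05. DESeq2, run as an alternative, called it (log2 fold change 1.16, adjusted p = 0.0271). The exact permutation test gave p = 0.1, the smallest value that 3 against 3 rats allow (two-sided). The ratio of SAP to CON was 2.80 between the libraries that list barcodes under 1000 UMIs (CON 2 and SAP 1) and 2.01 among the other 4 libraries.

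Of the 7 genes, edgeR called 0 over all nuclei, as it did of all genes (0% of 19187). At an unadjusted p under 0.05 stood 2 of the 7, Fkbp5 and Sgk1, against 8.43% of all genes in either direction and 3.97% in the direction of SAP. DESeq2 called 1 of the 7, and 215 of the 13941 genes to which it gave an adjusted p (1.54%). Every SAP rat lay above every CON rat for 2 of the 7, Fkbp5 and Hsd11b2, and for 4.53% of all genes tested. Rats of a group were separate animals, so these p-values measure the spread between animals. The 7 genes were chosen with earlier results of these data known. Their shares beside those of all genes, here and below, are therefore a description.

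**Figure D1:**
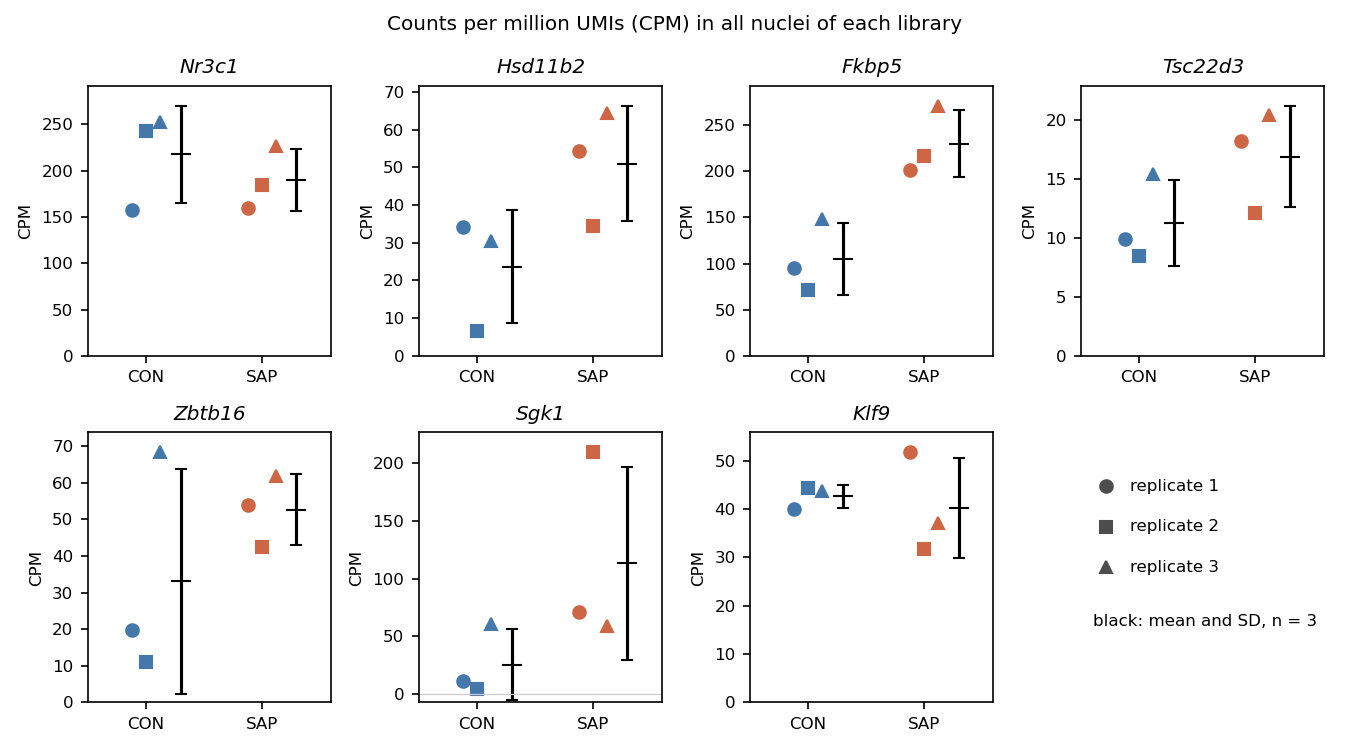
Level of the 7 genes over all nuclei in CPM (linear axes, 1 panel per gene), with a point for each rat of CON (blue) and SAP (orange), a shape for each replicate number and a black bar for the mean and SD of the 3 rats. The SAP points of Fkbp5 (201 to 271) and Hsd11b2 (34.3 to 64.4) lie above all CON points, and those of the other 5 genes overlap with CON.

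The receptor itself, Nr3c1, showed no such separation. It was at 157, 243 and 253 CPM in CON and at 160, 184 and 226 CPM in SAP. The groups overlapped, with a log2 fold change of −0.19 (SE 0.21, edgeR, adjusted p = 0.867). The ratio of SAP to CON was 0.659 between CON 2 and SAP 1 and 1.00 among the other 4 libraries.

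Hsd11b2 oxidises corticosterone to an inactive ketone and so shields the mineralocorticoid receptor in aldosterone-responsive cells. Its level was 34.1, 6.66 and 30.3 CPM in CON and 54.2, 34.3 and 64.4 CPM in SAP. Every SAP rat lay above every CON rat, though SAP 2 exceeded CON 1 by little, and CON 2 was far under the other CON rats. With all rats the log2 fold change was 1.01 (SE 0.59, edgeR, unadjusted p = 0.124, adjusted p = 0.698). It was 0.53 without CON 2 and 1.68 without CON 1. The ratio of SAP to CON was 8.14 between CON 2 and SAP 1 and 1.53 among the other libraries. With the replicate number as a block, a pairing that the study does not state, the log2 fold change was 1.33 (edgeR, unadjusted p = 0.0160, adjusted p = 0.380).

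Tsc22d3 encodes GILZ, a leucine zipper protein that restrains NF-κB and AP-1. It was scarce, with 1374 UMIs over the 6 libraries, at 9.94, 8.51 and 15.5 CPM in CON and 18.2, 12.1 and 20.4 CPM in SAP. SAP 2 lay inside the CON range and the other SAP rats above it (log2 fold change 0.58, SE 0.33, edgeR, adjusted p = 0.697). Its ratio of SAP to CON was 2.14 between CON 2 and SAP 1 and 1.28 among the other 4 libraries. Between rats of equal replicate number SAP was the higher in 3 of 3, by 1.83, 1.43 and 1.32 times, and with the replicate number as a block adjusted p was 0.406 (edgeR). The study states no pairing of these numbers. The 3 of 3 of Tsc22d3 depends on the pairing, since SAP 2 lay under CON 3. Fkbp5 and Hsd11b2, whose groups did not overlap, are higher in 3 of 3 under any pairing. By replicate number, Zbtb16 and Sgk1 were lower in replicate 3, and Klf9 and Nr3c1 were lower in replicates 2 and 3.

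Zbtb16, a zinc finger transcription factor also known as PLZF, was at 19.9, 11.0 and 68.2 CPM in CON and at 53.9, 42.3 and 61.7 CPM in SAP. CON 3 exceeded every SAP rat. The log2 fold change was 0.77 (SE 0.52, edgeR, adjusted p = 0.748), and it was 1.53 without CON 3 and 0.38 without CON 2. Between CON 2 and SAP 1 the ratio of SAP to CON was 4.88, and among the other 4 libraries it was 1.18.

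Klf9, a Krüppel-like factor that many tissues induce under glucocorticoids, was at 40.0, 44.4 and 43.8 CPM in CON and at 51.7, 31.8 and 37.2 CPM in SAP. The CON rats lay inside the SAP range (log2 fold change −0.07, SE 0.33, edgeR, adjusted p = 0.975). The sign turned when 1 library was left out, to 0.09 without CON 1, 0.04 without SAP 2 and 0.14 without SAP 3. The direction also differed by listing, with a ratio of SAP to CON of 1.17 between CON 2 and SAP 1 and 0.82 among the other 4 libraries.

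Sgk1 is a kinase under both glucocorticoid and mineralocorticoid control that keeps sodium channels at the cell surface. It was at 10.8, 4.12 and 60.8 CPM in CON and at 70.8, 210 and 58.5 CPM in SAP. SAP 3 lay just under CON 3, and SAP 2 stood far above the rest. The log2 fold change was 2.41 (SE 0.90, edgeR, unadjusted p = 0.0279, adjusted p = 0.557), and it was 1.49 without SAP 2 and 3.74 without CON 3. Between CON 2 and SAP 1 the ratio was 17.2, and among the other 4 libraries it was 3.75.

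Fkbp5 and Sgk1 also had the lowest p-values of the 7 over all epithelial nuclei. Fkbp5 was at 76.2, 69.8 and 142 CPM in CON and at 192, 206 and 241 CPM in SAP (log2 fold change 1.15, SE 0.26, edgeR, adjusted p = 0.40). Sgk1 was at 11.4, 3.32 and 67.4 CPM in CON and at 74.0, 230 and 70.3 CPM in SAP, so that its groups just parted (log2 fold change 2.36, SE 0.97, edgeR, adjusted p = 0.429). Here too edgeR called 0 of the 7 genes and 0% of 16749 genes, DESeq2 called Fkbp5 (adjusted p = 0.0181) and 2.15% of the genes with an adjusted p, and Fkbp5 and Sgk1 were the 2 at an unadjusted p under 0.05, against 11.5% of all genes. Every SAP rat above every CON rat was seen for Fkbp5, Sgk1 and 5.47% of all genes tested.

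Fkbp5 was measured in enough nuclei to be tested in all 17 classes. In each class the lowest SAP rat lay above the highest CON rat. Its log2 fold change was 0.74 in cluster 10, 0.79 in enteroendocrine-like nuclei and 0.96 in enterocyte-like nuclei at the low end. At the high end it was 1.35 in goblet-like nuclei, 1.45 in NAC-like nuclei (neuron-associated cells) and 1.53 in macrophage-like nuclei, with a median of 1.17 over the classes. The NAC-like value rests on 124 UMIs, with 10 nuclei in SAP 1 and 19 in SAP 2. All 17 unadjusted p-values were under 0.05 (edgeR, 0.00058 to 0.0204), and none of the adjusted values was (0.211 to 1.00). The 17 classes come from the same 6 libraries, so they are not independent measurements of the difference.

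The values in single classes show how far the SAP rats stood apart. In macrophage-like nuclei Fkbp5 was at 123, 64.7 and 85.8 CPM in CON and 277, 262 and 280 CPM in SAP. These values rest on 335 UMIs over the 6 libraries, with 25 nuclei in SAP 1 and 49 in SAP 2. In stem/TA-like nuclei it was at 125, 82.0 and 146 CPM in CON and 263, 270 and 284 CPM in SAP. In T-like nuclei, where its mean was highest among the classes tested, it was at 168, 95.6 and 182 CPM in CON and 289, 245 and 402 CPM in SAP. In enterocyte-like nuclei, where its mean was lowest, it was at 41.3, 69.3 and 87.3 CPM in CON and 119, 133 and 104 CPM in SAP. Some gaps were narrow. In fibroblast-like nuclei CON 3 reached 176 CPM and SAP 1 was at 196 CPM, and in cluster 10 CON 1 reached 180 CPM and SAP 3 was at 206 CPM.

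**Figure D2:**
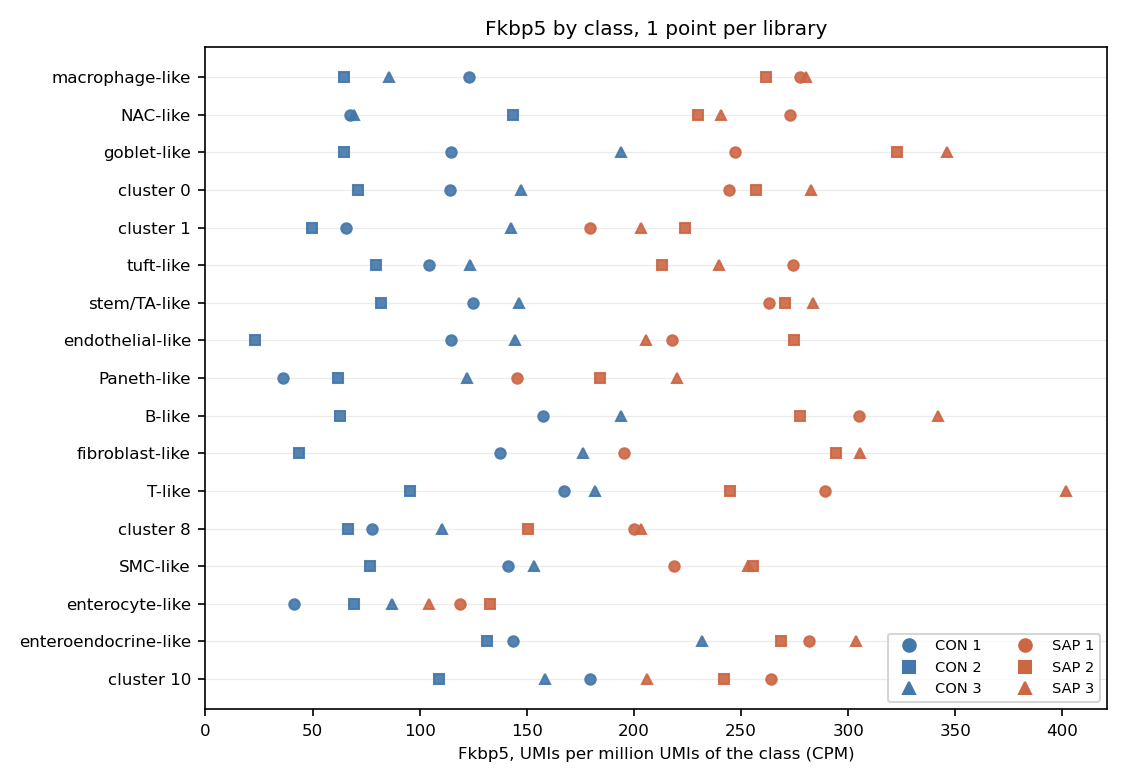
Level of Fkbp5 in CPM (linear axis) in each of the 17 classes, ordered by log2 fold change, with a point for each rat, CON in blue and SAP in orange. The SAP points lie above the CON points in every class. The gap is wide in macrophage-like nuclei (CON 64.7 to 123, SAP 262 to 280) and narrow in fibroblast-like nuclei (CON 43.6 to 176, SAP 196 to 305).

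Together the 7 genes gave 96 tests over the 17 classes, the pairs of gene and class out of 119 that passed the filter on low counts. edgeR called 0 of the 96, against 0.0189% of all gene tests in these classes. An unadjusted p under 0.05 was found in 33 of the 96, against 8.08%. These were 17 of Fkbp5, 11 of Sgk1, 2 of Hsd11b2, 2 of Tsc22d3 and 1 of Zbtb16. DESeq2 gave an adjusted p for 81 of the 96 and called 4, Fkbp5 in cluster 0, cluster 1 and stem/TA-like nuclei and Sgk1 in cluster 0. Of all gene tests with an adjusted p in these classes it called 832 (0.706%). The log2 fold change was above 0 in 74 tests and below 0 in 22. The filter can pass a gene that is high in 1 group alone, and over all 119 pairs the SAP mean was the higher in 92. In 33 of the 96 every SAP rat was above every CON rat, against 5.13% of all gene tests. Of these, 17 were of Fkbp5, 8 of Sgk1, 5 of Hsd11b2, 2 of Tsc22d3 and 1 of Zbtb16. The 96 tests come from the same 6 libraries and are not independent. Because the 7 genes were chosen with earlier results of these data known, these shares are a description and no test.

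Sgk1 had a log2 fold change above 0 in all 14 classes in which it was tested, from 0.97 in endothelial-like nuclei to 3.37 in cluster 0. An unadjusted p under 0.05 was reached in 11 classes, and the rats of the groups did not overlap in 8. In cluster 0 it was at 3.18, 1.90 and 14.3 CPM in CON and at 18.1, 130 and 20.7 CPM in SAP (edgeR, adjusted p = 0.380). Without SAP 2 the log2 fold change in cluster 0 was 1.64 (edgeR, adjusted p = 0.660), and without CON 3 it was 4.55 (edgeR, adjusted p = 0.358). SAP 2 was the highest library and CON 3 the highest CON library in each of the 14 classes tested. In enterocyte-like nuclei, where its mean was highest, the groups overlapped, with 58.8, 15.8 and 246 CPM in CON and 163, 354 and 195 CPM in SAP (log2 fold change 1.19, SE 0.79, edgeR, adjusted p = 0.736). Among enterocyte-like nuclei every SAP rat was above every CON rat for 3.32% of all genes tested.

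Hsd11b2 was tested in 12 classes, with a log2 fold change of 0.41 in tuft-like nuclei to 1.50 in goblet-like nuclei. In goblet-like nuclei it was at 106, 11.2 and 76.7 CPM in CON and at 229, 134 and 184 CPM in SAP, with no overlap (edgeR, unadjusted p = 0.0678, adjusted p = 0.610). In that class 4.99% of all genes tested had every SAP rat above every CON rat. Unadjusted p was under 0.05 in T-like nuclei (log2 fold change 1.03, edgeR, unadjusted p = 0.0298, adjusted p = 0.665) and in cluster 10 (1.33, edgeR, unadjusted p = 0.0237, adjusted p = 0.585).

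Zbtb16 was tested in 14 classes, with a log2 fold change of 0.05 in endothelial-like nuclei to 1.50 in stem/TA-like nuclei. SMC-like nuclei were the class in which its groups did not overlap, with 138, 80.1 and 272 CPM in CON and 350, 307 and 342 CPM in SAP (log2 fold change 1.03, SE 0.39, edgeR, unadjusted p = 0.0233, adjusted p = 0.327). SMC-like nuclei were also the class in which 7.85% of all genes tested had every SAP rat above every CON rat, the highest share over the classes.

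Tsc22d3 was tested in 8 classes, all with a log2 fold change above 0. The filter on low counts can pass a gene that is high in 1 group alone, so this count depends on the filter. Over all 17 classes the SAP mean was above the CON mean in 15. It was below in B-like (13.3 CPM in CON, 12.2 CPM in SAP) and endothelial-like nuclei (20.5 and 16.2 CPM), both untested. The values in cluster 1 rest on 79 UMIs. In cluster 1 it was at 4.19, 2.76 and 5.27 CPM in CON and at 15.3, 10.1 and 10.7 CPM in SAP, without overlap (log2 fold change 1.55, SE 0.47, edgeR, unadjusted p = 0.00975, adjusted p = 0.263). In cluster 1, 6.24% of all genes tested parted in this way. In enterocyte-like nuclei the groups touched, with 9.73 CPM in CON 2 and 9.92 CPM in SAP 3 (log2 fold change 1.06, edgeR, adjusted p = 0.654).

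Klf9 and Nr3c1 gave no such pattern. Klf9 had 7 classes above 0 and 7 below 0, from −0.54 in tuft-like to 0.38 in goblet-like nuclei. In tuft-like nuclei it was at 76.8, 68.2 and 49.7 CPM in CON and at 28.4, 54.1 and 29.5 CPM in SAP (edgeR, adjusted p = 0.749). In cluster 0 all SAP rats were under the CON range, with 30.3, 32.4 and 30.1 CPM in CON and 26.4, 22.8 and 29.0 CPM in SAP (log2 fold change −0.17, edgeR, adjusted p = 0.80), as did 9.97% of all genes tested there. Nr3c1 had 15 of 17 classes below 0, from −0.35 in endothelial-like nuclei to 0.17 in cluster 10, and no class with an unadjusted p under 0.05.

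**Figure D3:**
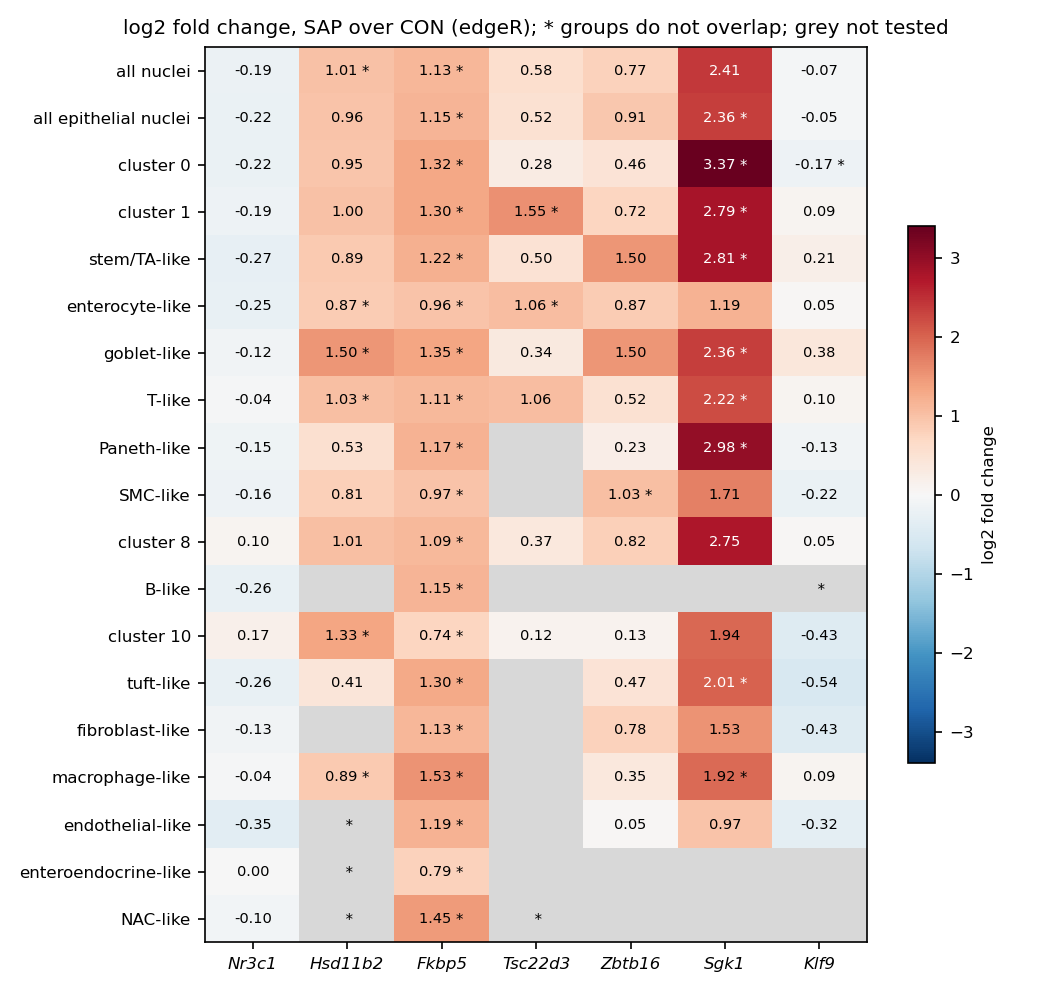
Log2 fold change of SAP over CON from edgeR for each of the 7 genes (columns) over all nuclei, all epithelial nuclei and in each class (rows), with an asterisk where the CON and SAP rats did not overlap and grey where a gene was not tested for low counts. Over the classes Fkbp5 runs from 0.74 to 1.53, Sgk1 from 0.97 to 3.37, and Nr3c1 from −0.35 to 0.17.

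The 7 genes were also read for where in the ileum they lay, as the mean CPM over all 6 rats of each class. This compares the 17 classes within a gene and leaves out classes with under 10 nuclei in a library. Zbtb16 was highest in the muscle and stroma, at 248 CPM in SMC-like, 180 CPM in fibroblast-like and 98.6 CPM in endothelial-like nuclei, and lowest at 17.1 CPM in enterocyte-like nuclei. It was higher in SMC-like than in enterocyte-like nuclei in 6 of 6 rats, by 8.24 to 25.3 times, and higher than in fibroblast-like nuclei in 5 of 6. Klf9 was likewise highest in SMC-like nuclei, with 141 CPM in SMC-like, 86.7 CPM in fibroblast-like and 77.2 CPM in cluster 8 nuclei, and 23.4 CPM in enterocyte-like nuclei. SMC-like nuclei were above enterocyte-like nuclei in 6 of 6 rats for Klf9 as well.

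Sgk1 was highest in enterocyte-like nuclei at 172 CPM, followed by cluster 1 at 77.8 CPM, and lowest in stem/TA-like nuclei at 21.8 CPM. Enterocyte-like nuclei were above stem/TA-like nuclei in 6 of 6 rats, by 3.99 to 22.4 times. Hsd11b2 stood at 123 CPM in goblet-like, 50.3 CPM in Paneth-like and 21.0 CPM in enterocyte-like nuclei. It was higher in goblet-like than in enterocyte-like nuclei in 6 of 6 rats, by 4.3 to 10.3 times, and higher than in Paneth-like nuclei in 5 of 6.

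Nr3c1 and Fkbp5 were spread more evenly. Nr3c1 ran from 258 CPM in B-like to 125 CPM in NAC-like nuclei, and Fkbp5 from 230 CPM in T-like to 92.3 CPM in enterocyte-like nuclei, 2.06 and 2.49 times apart. Tsc22d3 was highest in cluster 8, at 39.2 CPM, and lowest in cluster 1, at 8.05 CPM. Neighbours in the order of classes mostly did not differ beyond their spread. For 5 of the genes all 16 neighbouring pairs of classes lay within 1 SD of each other, and for Zbtb16 and Klf9 15 of 16 did. Classes were measured in the same rats, and the order held in 6 of 6 rats for some neighbours. These were Sgk1 in enterocyte-like nuclei over cluster 1, Tsc22d3 in cluster 8 over macrophage-like nuclei and Zbtb16 in endothelial-like over stem/TA-like nuclei. The other pairs did not keep their order in every rat.

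**Figure D4:**
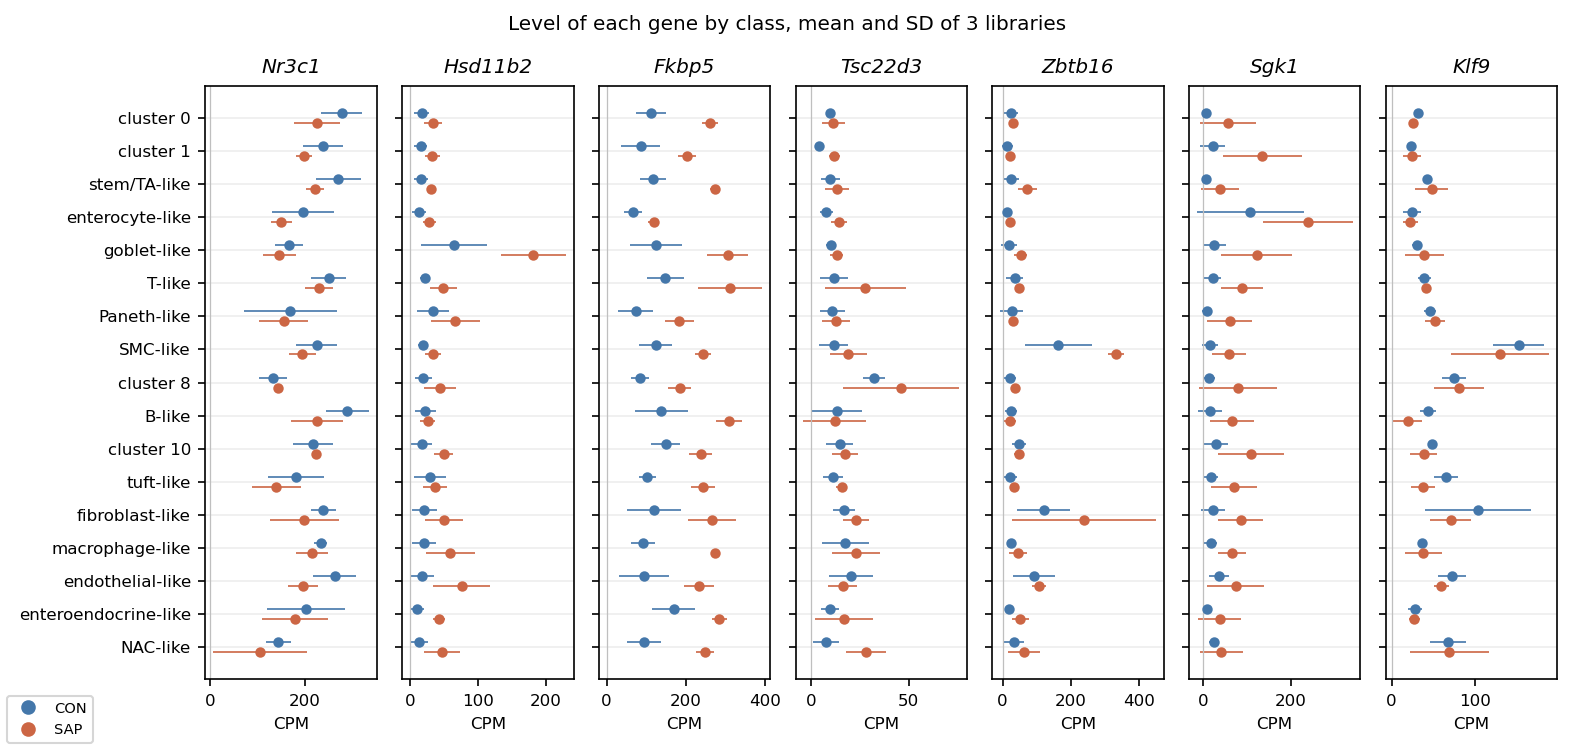
Level of each of the 7 genes (1 panel per gene, CPM on linear axes) in each of the 17 classes, as the mean and SD of the 3 CON rats (blue) and the 3 SAP rats (orange). Zbtb16 is highest in SMC-like nuclei (means of 163 in CON and 333 in SAP), Sgk1 in enterocyte-like (107 and 237) and Hsd11b2 in goblet-like nuclei (64.7 and 182).

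In droplet data, RNA free in the suspension adds UMIs of abundant classes to all others. Levels in the other 16 classes were therefore set beside markers of the class in which each gene was highest. Sgk1 in other classes had medians of 7.39% to 36.9% of its enterocyte-like level, and the 8 enterocyte markers together 14.7% to 43.7%. Sgk1 stood above the markers in all 6 libraries in 0 of the 16 classes and in 5 of 6 libraries in goblet-like nuclei. The enterocyte markers were themselves higher in SAP in these classes, with log2 ratios of group means of 0.52 to 1.19, and their part in the values of Sgk1 outside enterocyte-like nuclei was not tested.

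For Hsd11b2 the other classes lay at 18.5% to 48.0% of its goblet-like level, and the 7 goblet markers at 11.3% to 31.3%. Hsd11b2 stood above the markers in all 6 libraries in Paneth-like nuclei alone. The goblet markers had log2 ratios of SAP to CON of −0.42 to 0.52 in these classes.

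Fkbp5, Nr3c1, Zbtb16 and Klf9 stood above the markers of their highest class in all 6 libraries in 14 or 15 of 16 classes. Fkbp5 in other classes lay at 44.5% to 104% of its T-like level against 15.5% to 43.3% for T cell markers. Nr3c1 lay at 53.3% to 96.9% of its B-like level against 0% to 9.27% for B cell markers, and Zbtb16 at 6.58% to 71.1% and Klf9 at 17.0% to 59.1% of their SMC-like levels against 1.21% to 9.49% for SMC markers. Tsc22d3, highest in the unnamed cluster 8, was not set beside source markers. Markers of a single class trace free RNA of that class alone. For Fkbp5 and Nr3c1, which were spread more evenly, the comparison cannot measure RNA carried over from other classes. The part of free RNA in their values was not tested.

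In sums over all nuclei, fewer nuclei of a type and less RNA per nucleus cannot be told apart, so the level was recomputed with each library given the same mix of 22 classes. The log2 ratio of Fkbp5 was then 1.14, with 106 ± 36.7 CPM in CON and 234 ± 18.3 CPM in SAP (SD, n = 3 each, exact permutation test, p = 0.1). Hsd11b2 had 1.19 (exact p = 0.1, groups apart), and Sgk1 1.88 (exact p = 0.3). Zbtb16 had 0.77, Tsc22d3 0.55, Klf9 −0.10 and Nr3c1 −0.24, all with overlapping groups. These are log2 ratios of group means and are not edgeR estimates. The same ratios without the fixed mix were 1.13 for Fkbp5, 1.10 for Hsd11b2 and 2.16 for Sgk1. They were 0.67 for Zbtb16, 0.58 for Tsc22d3, −0.09 for Klf9 and −0.19 for Nr3c1. At the fixed mix without CON 3 the groups parted for 5 of the 7 genes in place of 2. Groups part more easily with a rat fewer, and at the fixed mix no share over all genes was computed. These counts are therefore a description.

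Whether the difference of SAP from CON itself varied among epithelial, immune and stromal nuclei was tested as an interaction. edgeR called 0 of the 14 tests, against 0.0122% of all genes for immune less epithelial and 0.0608% for stromal less epithelial nuclei. The lowest unadjusted p was that of Sgk1 in stromal nuclei, against epithelial nuclei (difference in log2 fold change −0.66, SE 0.31, edgeR, unadjusted p = 0.0468, adjusted p = 0.598). It was 1 of the 14 at an unadjusted p under 0.05, against 4.63% of all genes for immune less epithelial and 8.23% for stromal less epithelial nuclei, so its share was near that of all genes. For Fkbp5 the differences were −0.07 (SE 0.18) in immune and −0.13 (SE 0.19) in stromal nuclei.

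Other genes of the pathway were taken in 4 lists. Of 32 other genes that glucocorticoids are known to induce, 31 were tested over all nuclei. The log2 fold change was above 0 in 27 and below 0 in 4, with a median of 0.57 against 0.02 over all genes. edgeR called 0, with 10 higher and 1 lower at an unadjusted p under 0.05, against 3.97% of all genes that were higher at that threshold. DESeq2 called 4, Angptl4, Cebpd, Il1r2 and Zfp36, against 1.54% of all genes with an adjusted p. Il1r2 overlapped between the groups, at 0.452, 0.0877 and 2.23 CPM in CON and 15.7, 0.904 and 10.2 CPM in SAP. It was also among the 10 genes most raised in neutrophil-like nuclei over the rest. The part of the share of these nuclei in its values was not tested. Every SAP rat lay above every CON rat for 9 of the 31, against 4.53% of all genes. The 4 lists were also chosen with earlier results of these data known, so their shares are a description.

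Cebpd, a transcription factor of the acute phase, was at 9.21, 14.6 and 17.3 CPM in CON and at 41.8, 44.5 and 33.9 CPM in SAP (log2 fold change 1.63, SE 0.32, edgeR, adjusted p = 0.545). Zfp36, which encodes the mRNA-destabilising protein tristetraprolin, was at 21.2, 22.7 and 39.8 CPM in CON and at 75.3, 124 and 71.3 CPM in SAP (1.78, SE 0.36, edgeR, adjusted p = 0.545). Neither overlapped between the groups. Angptl4, an inhibitor of lipoprotein lipase that also responds to fasting, had a log2 fold change of 2.97 and Pck1, an enzyme of gluconeogenesis, of 1.62, both at an adjusted p of 0.545 (edgeR) and without overlap. On the low side Plin4, a lipid droplet protein, was at 2.19, 1.32 and 2.13 CPM in CON and at 0.901, 0.387 and 0.978 CPM in SAP (−1.45, SE 0.59, edgeR, adjusted p = 0.568), and Lpin1, Rgcc and Cdkn1c were between −0.44 and −0.21. Glul, glutamine synthetase, was the single gene of the 4 lists that edgeR called in a class, and it was named after its values were seen. In SMC-like nuclei it was at 43.4, 38.3 and 46.5 CPM in CON and at 148, 210 and 126 CPM in SAP (1.91, SE 0.31, edgeR, adjusted p = 0.0485). In that class edgeR called 0.179% of 8947 genes, the highest share over the classes. Over all nuclei the groups of Glul overlapped (log2 fold change 0.24, SE 0.39, edgeR, adjusted p = 0.909).

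Sodium transport under Sgk1 and the mineralocorticoid receptor was read from 9 genes, of which 7 had a log2 fold change above 0 and 2 below, with a median of 0.47. edgeR called 0. Higher in SAP at an unadjusted p under 0.05 were 3 of the 9, against 3.97% of all genes. DESeq2 called Scnn1b, against 1.54% of all genes with an adjusted p. Scnn1b, the beta subunit of the epithelial sodium channel, was at 2.75, 3.68 and 12.2 CPM in CON and at 15.3, 17.6 and 23.9 CPM in SAP, without overlap (1.70, SE 0.46, edgeR, adjusted p = 0.545). Its gamma subunit Scnn1g had a log2 fold change of 2.62 with overlap, and the alpha subunit Scnn1a of −0.12 (edgeR, adjusted p = 0.949). Slc9a3, the sodium-proton exchanger NHE3, was at 20.1, 62.9 and 117 CPM in CON and at 144, 259 and 86.4 CPM in SAP (1.52, SE 0.60, edgeR, adjusted p = 0.568). Nedd4l, the ubiquitin ligase that removes the channel from the surface, had 0.47 and the scaffold Nherf2 −0.48. Within classes, genes higher at an unadjusted p under 0.05 (edgeR) ran from 0 of 8 in enterocyte-like nuclei to 3 of 7 in clusters 0, 8 and 10. Of all genes, 1.81% to 6.8% were, by class. Enterocyte-like nuclei made up 8.07 ± 0.99% of CON and 17.7 ± 8.53% of SAP nuclei (SD, n = 3 each). The part of this share in the values over all nuclei was not tested.

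The receptor complex and steroid handling list was split, with 10 of 20 tested genes above 0, 10 below and a median of −0.09. edgeR called 0, as did DESeq2. Of all genes, 8.43% had an unadjusted p under 0.05 in either direction, and 3.97% had it and were higher in SAP. In this list 1 gene of 20 did, a share near that of all genes. That gene was Abcb1a, a P-glycoprotein efflux pump, at 84.1, 37.3 and 105 CPM in CON and at 106, 139 and 184 CPM in SAP (0.87, SE 0.38, edgeR, adjusted p = 0.588). Its paralog Abcb1b, with which it may share reads, had 1.37, the corepressor Ncor1 0.23 and the steroid-activating enzyme Hsd11b1 0.58. H6pd, which supplies cofactor to Hsd11b1, was lower in every SAP rat (85.8, 121 and 78.3 CPM in CON, 77.5, 59.8 and 76.3 CPM in SAP, log2 fold change −0.43, SE 0.30, edgeR, adjusted p = 0.756). The co-chaperone Stip1 had −0.63, Nr5a2, a nuclear receptor of gut steroid synthesis, −0.45 and the corepressor Nrip1 −0.25.

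Inflammatory genes that glucocorticoids are known to repress were scarce, and 9 of 13 could be tested, 8 above 0 and 1 below with a median of 1.23. edgeR called 0. Higher in SAP at an unadjusted p under 0.05 were 2 of the 9, against 3.97% of all genes. DESeq2 called Cxcl1, against 1.54% of all genes with an adjusted p. Cxcl1, a neutrophil chemokine, was at 0.278, 0.175 and 1.57 CPM in CON and at 11.5, 2.45 and 9.06 CPM in SAP (3.58, SE 0.85, edgeR, adjusted p = 0.545). Ptgs2, the inducible cyclooxygenase, was at 0.417, 0.614 and 1.32 CPM in CON and at 3.24, 2.26 and 5.25 CPM in SAP (2.20, SE 0.51, edgeR, adjusted p = 0.545). Il1b had 1.87 and Ccl2 1.49, with overlapping groups, and Il12b −0.68. Over epithelial nuclei 3 were above 0 and 2 below. Within classes the median was −1.33 in enterocyte-like, −0.50 in T-like and 0.23 in macrophage-like nuclei (2 genes each). With 1 gene it was 4.47 in SMC-like nuclei, −0.81 in cluster 10, −0.21 in goblet-like nuclei and −0.16 in cluster 1. Neutrophil-like nuclei were 0.108%, 0.128% and 0.392% of CON and 0.909%, 0.0838% and 0.570% of SAP nuclei. The part of the class mix was not tested.

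**Figure D5:**
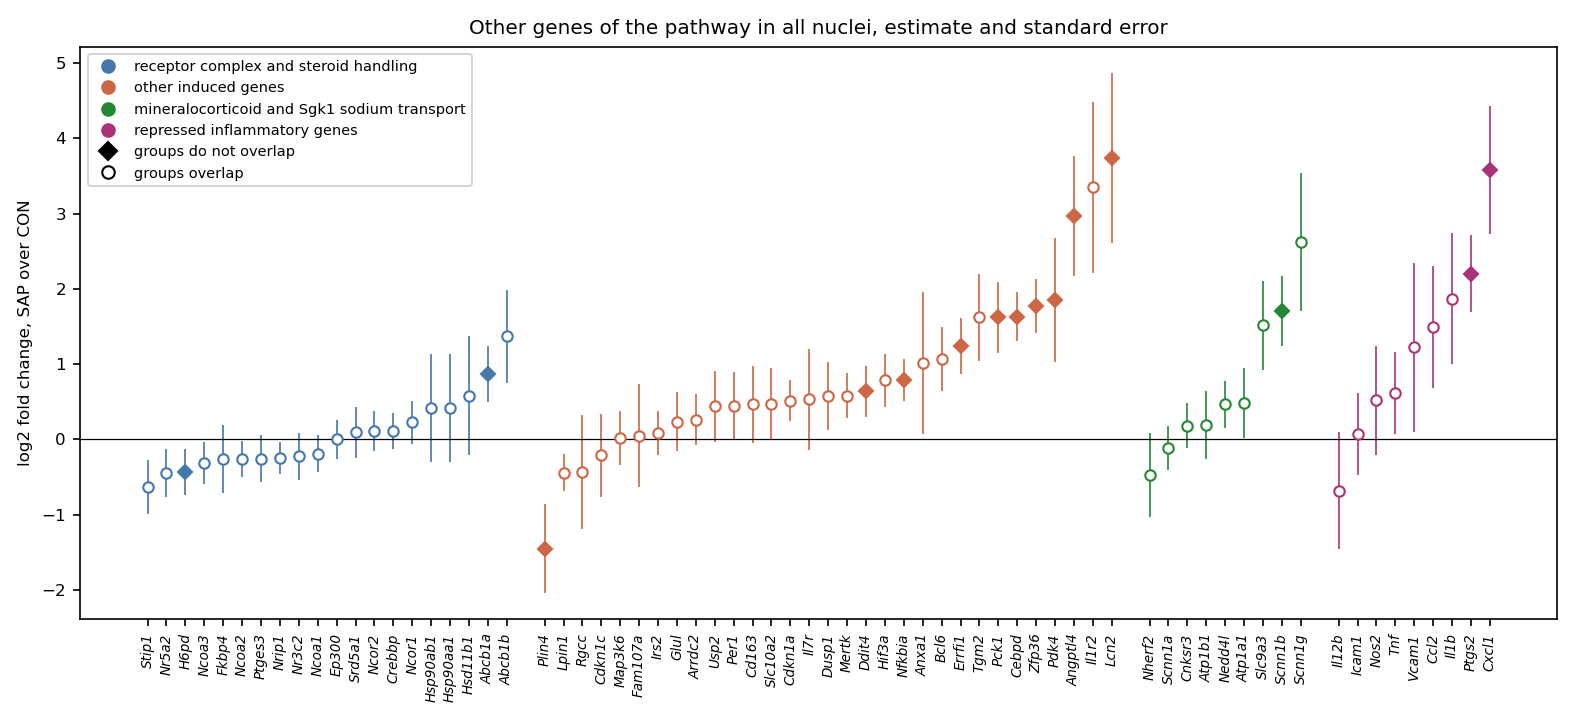
Log2 fold change of SAP over CON over all nuclei (edgeR) for each tested gene of the 4 pathway lists, coloured by list, as the estimate and its standard error, with filled diamonds where the groups did not overlap and open circles where they did. The list medians are 0.57 for other induced genes, 0.47 for sodium transport, 1.23 for repressed inflammatory genes and −0.09 for the receptor complex, against 0.02 over all genes.

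Genes whose mean log2 level over the 17 classes was most like that of each of the 7 were named by Pearson's r, as a description over classes that share libraries. For Zbtb16 these were Frmd6 (r = 0.977), Lama4 (0.945) and Abcc9 (0.935), and for Klf9 Afap1 (0.879), Ppp1r14a (0.874) and Cavin1 (0.874). For Sgk1 they were Xpnpep1 (0.917), Ugcg (0.904) and Mxd1 (0.903). Hsd11b2 was nearest to Gsdmc (0.912), Selenos (0.887) and the goblet marker Clca1 (0.869). Fkbp5 was nearest to Bptf (0.908), Ccar1 (0.896) and Luc7l3 (0.888), Nr3c1 to Abcf3 (0.926), Szrd1 (0.916) and Leo1 (0.897), and Tsc22d3 to LOC102551387 (0.884), LOC102548349 (0.843) and Bckdha (0.80).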

How the data were processed

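The deposited values are raw UMI counts, whole numbers for each gene in each barcode, which dnbc4tools produced. The submitters' processing notes name Seurat 4.3.0 and the build mRatBN7.2. Nuclei were filtered by the limits of the study's methods. The doublet caller run at its automatic setting marked 0% in all libraries. No nuclei were therefore removed, and dropping the 5% with the highest scores per library was an alternative. Nuclei were clustered with scanpy 1.11.5 (Python 3.11.15, 2000 variable genes, 30 principal components integrated over libraries, resolution 0.8). UMIs were summed per library and class and compared with edgeR 4.0.16 (R 4.3.3, filterByExpr, TMM, robust quasi-likelihood fit, Benjamini-Hochberg over all genes of a fit), with calls made where adjusted p was under 0.05 and the log2 fold change 0.5 or more in size. DESeq2 1.42.0 was an alternative. CPM are counts per 1000000 UMIs of the sum they come from. The script was tested on simulated counts. The 7 genes, the lists and the tests were chosen with earlier results of these data known. The genes named are the 7, up to 4 per direction and list with the lowest unadjusted p over all nuclei, and the 3 most similar genes for each of the 7. Il1r2 and Glul fall outside this rule and were named for their calls. Markers are named for their level. The study states no pairing of replicate numbers, and the tests are unpaired, with the number as a block as an alternative. Deviations from group means correlated at 0.608, 0.223 and 0.443 for equal numbers and at −0.611 to 0.0597 for others over all nuclei, but at 0.584, 0.0702 and 0.306 and at −0.583 to 0.178 over epithelial nuclei.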

Additional observations from a re-analysis of the deposited data

How the results depend on the processing

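The log2 fold change of Fkbp5 over all nuclei stayed between 0.90 and 1.28 over 13 alternatives, and those of Sgk1, Hsd11b2, Zbtb16 and Tsc22d3 above 0. It was 1.18 with a mitochondrial limit of 1%, 1.14 without the nuclei of highest doublet scores and 1.17 with the kind of barcode listing as a covariate. The limit of 1% cut the groups unequally. It left 6642, 6176 and 7924 nuclei in CON 1, 2 and 3 and 384, 1908 and 6825 in SAP 1, 2 and 3. Before it, SAP 1 had 3189 nuclei and SAP 2 had 5968. Klf9 reversed, with −0.39 to 0.14 over all nuclei and −0.41 to 0.17 over epithelial nuclei when single libraries were left out. With a replicate block no call changed for the 7 genes (Fkbp5 over all nuclei 1.17, adjusted p = 0.353), while the genes called in classes went from 28 to 129.

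Members called by DESeq2 numbered 1 over all nuclei, 1 over epithelial nuclei and 4 of the 81 with an adjusted p over classes, beside 215, 297 and 832 of all genes, and list genes 4 for other induced genes, 1 for sodium transport and 1 for repressed inflammatory genes. Over classes 1 was called by scaling to library totals alone (Sgk1 in Paneth-like nuclei). Without a filter on low counts 14 of 119 were called, with 2812 calls among all genes. Leaving out single libraries gave 0 to 1 over classes, the 1 being Sgk1 in SMC-like nuclei without CON 3. The number at an unadjusted p under 0.05 was 1 to 3 both over all nuclei and over epithelial nuclei when single libraries were left out, 1 in each without a filter, and 1 over epithelial nuclei by library totals. At a fixed class mix 2 to 5 genes parted, with no share over all genes computed. For library totals, left-out libraries and the fits without a filter, the shares of all genes are not given. These counts are therefore a description and cannot be set against all genes. The cause of these changes was not tested. Depth limits Tsc22d3 most, with 1374 UMIs in all and tests in 8 of 17 classes.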

Other observations

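The list of other induced genes was also read within classes. Its median log2 fold change (edgeR) was above 0 in each of the 16 classes where any of its genes could be tested, from 0.23 in B-like nuclei (6 genes tested) over 0.91 in stem/TA-like nuclei (19 genes) to 0.95 in SMC-like nuclei (17 genes). The number at an unadjusted p under 0.05 and higher in SAP ran from 0 in B-like nuclei to 10 of 19 in stem/TA-like nuclei, against 1.81% and 3.95% of all genes tested in these classes. The receptor complex list stayed near 0, with medians of −0.17 in enterocyte-like nuclei to 0.14 in cluster 8.

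Classes with under 10 nuclei in a library were not tested, and some hold levels of note. In neutrophil-like nuclei (130 in all) Fkbp5 was at 0, 0 and 203 CPM in CON and at 267, 191 and 204 CPM in SAP, on 65 UMIs. Its groups overlapped there, and also in fat-like, mesothelial-like and interstitial cell of Cajal-like nuclei and in cluster 21. In cluster 21 Fkbp5 was at 68.4, 465 and 438 CPM in CON and at 359, 247 and 502 CPM in SAP, on 123 UMIs. In fat-like nuclei (97 in all) Nr3c1 was at 480, 564 and 416 CPM in CON and at 0, 238 and 177 CPM in SAP, on 96 UMIs, and Klf9 at 132, 62.6 and 83.2 CPM in CON and at 0, 47.5 and 59.0 CPM in SAP, on 21 UMIs. In both of these the SAP rats lay below the CON rats, with 2 fat-like nuclei in SAP 1. These values were chosen after they were seen.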
